A study of Homo sapiens with 6 samples.

Results

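The genes described here build the junctions that hold epithelial cells together and seal the space between them: the claudin family and 33 listed genes of tight junctions, adherens junctions, desmosomes and cell polarity. They were chosen by name, with earlier results of these data known, so their shares of called genes are a description and not a test. Every gene whose symbol is CLDN followed by a number was taken, together with the listed genes, where a probe set of the array carried that single symbol. This gave 49 genes of the 14884 named genes in the data: 24 claudins, 5 other tight junction membrane proteins, 4 tight junction plaque proteins, 5 polarity proteins, 4 desmosomal cadherins, 6 desmosomal plaque proteins and EPCAM. A further 8 listed genes were not analysed here, among them the 5 listed adherens junction cadherins and catenins, so adherens junctions are described below only through other genes of that structure.

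Total RNA came from the Caco-2 line, long established from a human colon carcinoma, which takes on features of absorptive enterocytes when it is kept in culture. All cells had been infected with lentivirus before they reached confluence and were harvested 17 days later. The virus carried a scramble shRNA (the control hairpin), FAM46A-shRNA#2 or FAM46A-shRNA#4, with 2 arrays for each, and the series asked which genes respond when FAM46A is depleted. FAM46A encodes a member of a family of noncanonical poly(A) polymerases. Its own level was not analysed here, so the groups follow the labels alone and the extent of depletion in these arrays was not measured. All 3 groups are 1 cell line carrying a lentivirus; the sources used here do not say whether infected cells were selected. The labels call the arrays of a group biological replicates without saying what separates them, so a p-value here reflects the spread among these 6 arrays and no more.

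Tight junctions run as a belt below the apical surface. Claudins form their strands and set which ions pass between the cells, occludin and its relatives (the MARVEL proteins) join the strands, and plaque proteins such as ZO-1 tie them to actin. Desmosomes are spot-like junctions in which desmogleins and desmocollins of neighbouring cells bind each other and are linked through plakoglobin, plakophilins and desmoplakin to keratin filaments. The Par and Crumbs proteins mark the apical side and help to position the junctions. In the intestine this machinery forms the paracellular barrier.

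Values are on a log2 scale, and in the deposited table each probe set had been set relative to its own median over the 6 arrays. A value of 1 therefore lies 2-fold above that median, an array at 0.00 sits on it, and neither the level of a gene nor its signal over background can be read. For the same reason the labelled cell type could not be checked by the presence of its markers. A change is the mean of the hairpin arrays minus the mean of the scramble arrays, given with the standard error (SE) of a limma fit over all 6 arrays, with n = 2 arrays a group. A gene was called changed at a Benjamini-Hochberg adjusted p under 0.05 over all 14884 genes. Each gene here had 1 probe set, and no filter on low values was applied, so all 49 were tested. The median absolute difference between the 2 arrays of a group over these genes came to 0.0459 in scramble, 0.0526 under shRNA#2 and 0.083 under shRNA#4. The widest gaps between replicates were 0.42 for DSC3 in scramble, 0.36 for CLDN16 in shRNA#2 and 0.43 for PKP3 in shRNA#4.

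Promoter sequence is shown for the genes on which the results below turn: CLDN1 and CLDN16, which overlap on chromosome 3 and were lower with both hairpins, and OCLN, where the hairpins differed most. The RefSeq promoter table (GRCh38.p14) held 36 of the 49 genes. The 250 bases upstream of the RefSeq gene start are given 5′ to 3′ on the strand of the gene. Capitals mark the E-box CACCTG, read on both strands and so also as CAGGTG, a sequence bound by repressors of epithelial genes such as SNAI and ZEB proteins.
CLDN16: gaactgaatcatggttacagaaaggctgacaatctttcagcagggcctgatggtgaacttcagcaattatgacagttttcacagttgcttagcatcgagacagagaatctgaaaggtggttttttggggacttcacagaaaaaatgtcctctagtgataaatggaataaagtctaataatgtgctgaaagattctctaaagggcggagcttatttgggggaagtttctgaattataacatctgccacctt
CLDN1: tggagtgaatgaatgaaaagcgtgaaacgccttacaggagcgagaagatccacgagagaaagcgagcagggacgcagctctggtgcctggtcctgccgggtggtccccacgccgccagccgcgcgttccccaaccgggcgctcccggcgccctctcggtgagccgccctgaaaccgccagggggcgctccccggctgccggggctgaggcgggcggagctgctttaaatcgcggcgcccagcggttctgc
OCLN: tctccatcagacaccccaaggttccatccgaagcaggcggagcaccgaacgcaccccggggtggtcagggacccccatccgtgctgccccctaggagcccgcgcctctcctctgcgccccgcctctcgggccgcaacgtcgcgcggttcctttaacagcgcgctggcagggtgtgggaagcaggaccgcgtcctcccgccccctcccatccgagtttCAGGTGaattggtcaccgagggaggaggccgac
The CLDN16 window is chr3:190290111-190290360 on the plus strand, the CLDN1 window chr3:190322447-190322696 on the minus strand and the OCLN window chr5:69492297-69492546 on the plus strand. CLDN16 had 40.0% G and C with 2 CG pairs, against 68.8% with 28 CG pairs in CLDN1 and 68.8% with 24 in OCLN. The median was 63.2% over the 36 promoters and 62.8% over all 10749 analysed genes with an entry. OCLN held 1 E-box at -33 to -28 from the start, and CLDN1 and CLDN16 held 0. An E-box was present in 9 of the 36 promoters (25.0%), namely those of OCLN, CLDN18, CLDN25, TJP1, PATJ, CRB3, DSP, DSC2 and DSG2, and in 16.9% of all 10749. CRB3 had 5 matches, but its window, like those of CGN and CLDN15, does not end at the RefSeq gene start, so it may hold transcribed sequence. The other 33 windows end at that start. The other letters searched were the Grainyhead motif AACCGGTT, the HNF4 motif CAAAGTCCA and the CDX motif TTTATGG, each on both strands. They were found in 0 of the 36 promoters, and in 0.112%, 0.223% and 1.87% of all promoters.

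More junction genes were lower than higher. In the mean of both hairpins, 13 of the 49 genes were lower and 5 were higher, 18 in all (36.7%), where 25.4% of all 14884 genes were called, 14.8% higher and 10.6% lower. With shRNA#2, 19 of the 49 were called (38.8%; 21.6% of all genes), 15 of them lower (9.54% of all genes) and 4 higher (12.1%). With shRNA#4, 13 of the 49 were called (26.5%), a share close to the 26.1% of all genes, 8 of them lower (10.4% of all genes) and 5 higher (15.7%). The comparisons with scramble share the same 2 scramble arrays. The hairpins differed from each other in 11 of the 49 genes (22.4%; 15.3% of all genes), of which 4 were higher and 7 lower with shRNA#2 (6.64% and 8.63% of all genes). In 23 of the 49 (46.9%) the 4 hairpin arrays were all above or all below the scramble pair, as they were in 36.2% of all genes. Because RNA was taken from whole cultures, fewer cells of a type and less RNA per cell cannot be told apart. Leaving out 1 array leaves 1 group with a single array, and the number called among all 14884 genes then fell in every comparison. The counts moved when 1 array was left out: the shRNA#2 count was 12 without either shRNA#2 array, the shRNA#4 count 8 without replicate 1 of shRNA#4, and the count between hairpins 5 and 7 without replicate 1 or 2 of shRNA#2. Lower genes in the mean numbered 8 without scramble replicate 2 and 9 without shRNA#2 replicate 1, and higher genes 3 without scramble replicate 1, when 9 were lower. Lower genes with shRNA#2 numbered 8 without either shRNA#2 array and 9 without scramble replicate 1. With shRNA#4, 5 genes were lower without scramble replicate 1, and 3 and 2 were higher without scramble replicate 2 or shRNA#4 replicate 1. Between the hairpins the split of 4 higher and 7 lower became 3 and 2 without shRNA#2 replicate 1, and 3 and 4 without shRNA#2 replicate 2.

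**Figure D1:**
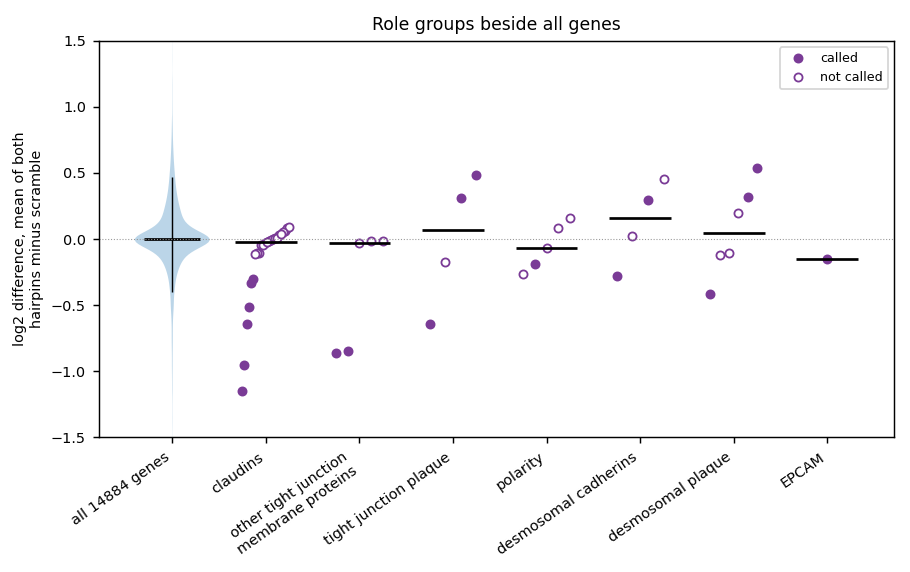
Log2 change of each junction gene as the mean of both hairpins minus scramble (y axis), by role group, with called genes filled, other genes open and the group median as a black line; the first column shows the distribution of all 14884 genes, cropped at the axis limits, with its median and its 5th to 95th percentile (-0.40 to 0.47). Most claudins sit near 0 while CLDN1, at -1.15, and 5 further claudins lie at -0.30 or below, and the called tight junction plaque and desmosome genes lie on both sides of 0.

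By role, 6 of 24 claudins, 2 of 5 other tight junction membrane proteins and 3 of 4 tight junction plaque proteins were called in the mean of both hairpins, where 25.4% of all genes were; the claudins' share was 25%. The 33 tight junction genes thus held 9 lower and 2 higher, with a median change of -0.03. Of the 10 desmosome genes 3 were higher and 2 lower, with a median of 0.11, and of the 5 polarity genes 1 was lower, with a median of -0.06. The median over all genes was 0.00. Between the hairpins, 4 of the 33 tight junction genes, 3 of the 5 polarity genes and 4 of the 10 desmosome genes were called, beside 15.3% of all genes; the tight junction share was 12.1%. Leaving out 1 array gave 3 to 6 called desmosome genes in the mean, with 3 without scramble replicate 1 or shRNA#2 replicate 1, and 0 called polarity genes without either scramble array, shRNA#2 replicate 1 or shRNA#4 replicate 2. The groups are small and differ in size, and no test between them was made.

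Among the claudins, the largest change was in CLDN1, a claudin that tightens the barrier. Its values were 1.11 and 1.04 in scramble, 0.00 and 0.00 with shRNA#2, and -0.15 and -0.13 with shRNA#4. The scramble arrays were thus high, all 4 hairpin arrays low, and replicates lay within 0.1 of each other. CLDN1 fell by 1.08 ± 0.05 (SE) with shRNA#2, 2.11-fold (adjusted p = 0.000298), and by 1.22 ± 0.05 with shRNA#4, 2.32-fold (adjusted p = 0.000229). The mean change was -1.15 ± 0.0433. The gap between the hairpins, 0.14 with a 95% interval of 0.02 to 0.26, was not called (adjusted p = 0.134).

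CLDN16, known for the reabsorption of magnesium and calcium in the kidney, was lower by a similar amount. Its values were 0.85 and 0.74 in scramble, 0.03 and -0.33 with shRNA#2, and -0.29 and -0.03 with shRNA#4. The groups of scramble and hairpin arrays did not overlap, although each pair of hairpin arrays was spread. The changes were -0.94 and -0.96 with shRNA#2 and shRNA#4 (adjusted p = 0.00585 and 0.00452), and -0.95 ± 0.12 in the mean, 1.93-fold lower (adjusted p = 0.00271). CLDN19 encodes the partner of claudin-16 in the kidney. It read 0.71 and 0.40 in scramble, -0.06 and -0.20 with shRNA#2, and -0.15 and 0.06 with shRNA#4. Scramble replicate 1 was the highest of these, and scramble replicate 2 still lay above all hairpin arrays. In the mean, CLDN19 was 1.56-fold lower (-0.64 ± 0.107, adjusted p = 0.0073). With the single hairpins it was lower by 0.68 (adjusted p = 0.0122, and 0.0701 without shRNA#2 replicate 2) and by 0.60 (adjusted p = 0.0156, and 0.0551 and 0.0819 without scramble replicate 1 or shRNA#4 replicate 1).

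CLDN7, a claudin abundant in the gut and partly found on the basolateral membrane, read 0.44 and 0.43 in scramble, -0.17 and -0.12 with shRNA#2, and -0.16 and 0.12 with shRNA#4. All hairpin arrays lay below scramble. The mean change was -0.51 ± 0.0806, 1.43-fold lower (adjusted p = 0.00588). Its changes with the single hairpins were -0.58 (adjusted p = 0.00803, and 0.0522 without shRNA#2 replicate 1) and -0.45 (adjusted p = 0.0161, and 0.0704 and 0.0614 without scramble replicate 1 or 2).

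CLDN3, a sealing claudin, and CLDN23 were also called lower in the mean, with smaller changes and calls that depended on single arrays. CLDN3 changed by -0.33 ± 0.0747 (adjusted p = 0.0212), a call that was lost without scramble replicate 2 (0.119) and without shRNA#4 replicate 1 or 2 (0.0561 and 0.0547). With shRNA#2 it was -0.38 (adjusted p = 0.027) and with shRNA#4 -0.29 (adjusted p = 0.0549). The shRNA#2 call was lost without scramble replicate 2 (0.108), shRNA#2 replicate 2 (0.117) or either shRNA#4 array (0.0507), and shRNA#4 passed without either shRNA#2 array (0.045). CLDN23 changed by -0.30 ± 0.0738 (adjusted p = 0.0293), and this call was lost without scramble replicate 1 or 2 (0.116 and 0.127) and without shRNA#2 replicate 1 or 2 (0.0762 and 0.0736). Its change with shRNA#2 was -0.35 (adjusted p = 0.0332, and 0.109 to 0.132 without any 1 scramble or shRNA#2 array), and with shRNA#4 it was -0.25 (adjusted p = 0.0835, and 0.0153 without shRNA#4 replicate 2).

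The other 18 claudins were called in none of the 4 comparisons. They include CLDN2, which forms cation pores, CLDN4, a sealing claudin that lies next to CLDN3 on chromosome 7, CLDN5, known from endothelium, and CLDN18, known from stomach and lung. Their mean changes ran from -0.12 for CLDN14 to 0.09 for CLDN20. CLDN2 read -0.10 with a 95% interval of -0.25 to 0.04, and CLDN4 read -0.11 with an interval of -0.26 to 0.05. Since levels were removed by centring, a claudin that these cells express and leave unchanged and one that they do not express look alike here. Between the hairpins 0 of the 24 claudins were called by limma, where 15.3% of all genes were. The intervals of the difference were -0.33 to 0.35 for CLDN16, -0.39 to 0.22 for CLDN19 and -0.36 to 0.10 for CLDN7. The largest gap among the claudins was that of CLDN34, 0.21 with an interval of 0.02 to 0.40 (adjusted p = 0.148).

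**Figure D2:**
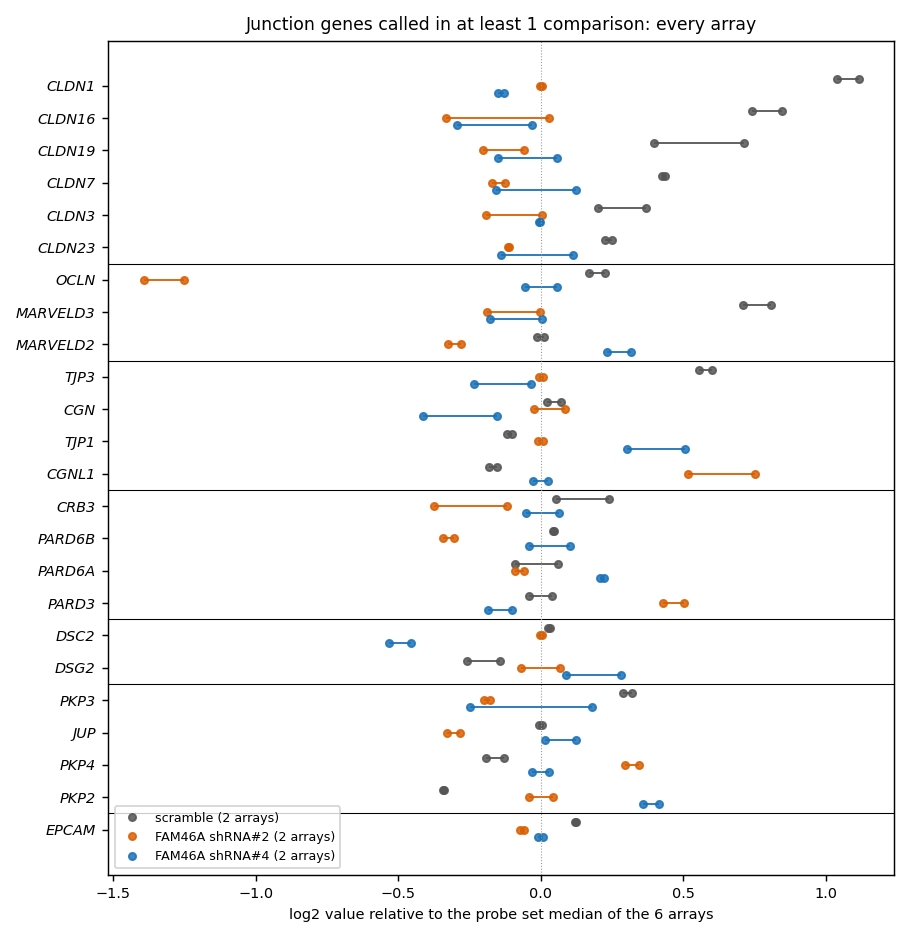
Log2 value relative to the probe set median (x axis) in each of the 6 arrays for the 24 junction genes called in at least 1 comparison (y axis, grouped by role), with a line joining the 2 arrays of a group: scramble in grey, FAM46A-shRNA#2 in orange and FAM46A-shRNA#4 in blue. In the top claudins and in MARVELD3 and TJP3 both hairpin groups sit left of scramble, whereas OCLN lies far to the left, at -1.25 and -1.39, with shRNA#2 alone.

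The MARVEL proteins gave 3 different patterns. OCLN encodes occludin, the first described membrane protein of tight junctions. It read 0.22 and 0.17 in scramble, -1.25 and -1.39 with shRNA#2, and 0.06 and -0.06 with shRNA#4. The shRNA#2 arrays stood apart from the other 4. OCLN was 2.86-fold lower with shRNA#2 (-1.52 ± 0.0702, adjusted p = 0.000298), while its value with shRNA#4 was -0.20 (adjusted p = 0.0964). The difference between the hairpins was -1.32 ± 0.0702, 2.50-fold (adjusted p = 0.00154), and the mean of both was -0.86 ± 0.0608 (adjusted p = 0.000491). RefSeq lists a transcribed pseudogene of occludin, OCLNP1, on the same chromosome, and whether the probe set also reads it was not tested.

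MARVELD2, or tricellulin, seals the points where 3 cells meet, and its gene neighbours OCLN. Its values were 0.01 and -0.01 in scramble, -0.32 and -0.28 with shRNA#2, and 0.32 and 0.23 with shRNA#4. The hairpin groups lay on opposite sides of scramble. The change was -0.30 ± 0.0527 with shRNA#2 (adjusted p = 0.0106) and 0.27 ± 0.0527 with shRNA#4 (adjusted p = 0.0123), so that the mean, -0.01, was not called (adjusted p = 0.887). The difference between the hairpins was -0.58 ± 0.0527 (adjusted p = 0.00286) and was called without any 1 array. The single-hairpin calls were lost without scramble replicate 1 or shRNA#2 replicate 1 (0.0548 and 0.0689) for shRNA#2, and without scramble replicate 2 or shRNA#4 replicate 1 (0.0557 and 0.0631) for shRNA#4.

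MARVELD3, the remaining MARVEL protein of tight junctions, was lower with both hairpins. It read 0.81 and 0.71 in scramble, -0.19 and 0.00 with shRNA#2, and 0.00 and -0.18 with shRNA#4. The hairpin groups covered the same range, well below scramble. MARVELD3 was lower by 0.85 with each hairpin (adjusted p = 0.00221 and 0.00159), 1.80-fold in the mean (-0.85 ± 0.0785, adjusted p = 0.00102). The 95% interval of the difference between hairpins was -0.23 to 0.21. JAM2 and JAM3, immunoglobulin-type adhesion molecules of endothelial and other junctions, had mean changes of -0.01 and -0.03 and were not called in any comparison.

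The plaque proteins below the membrane moved in opposite directions. TJP3, or ZO-3, a scaffold of epithelial tight junctions, was lower with both hairpins. It read 0.60 and 0.55 in scramble, -0.01 and 0.01 with shRNA#2, and -0.23 and -0.03 with shRNA#4. No hairpin array reached the scramble arrays. TJP3 was 1.56-fold lower in the mean (-0.64 ± 0.0639, adjusted p = 0.00127), with -0.58 for shRNA#2 (adjusted p = 0.00388) and -0.71 for shRNA#4 (adjusted p = 0.00143). The related TJP1, or ZO-1, which binds claudins, occludin and actin, went the other way with shRNA#4. It read -0.10 and -0.12 in scramble, 0.01 and -0.01 with shRNA#2, and 0.50 and 0.30 with shRNA#4. It was higher by 0.51 ± 0.0732 with shRNA#4 (adjusted p = 0.00421), against 0.11 with shRNA#2 (adjusted p = 0.383). The difference between the hairpins was -0.40 ± 0.0732 (adjusted p = 0.0173, and 0.0863 and 0.0848 without shRNA#2 replicate 1 or 2), and the mean change 0.31 ± 0.0634 (adjusted p = 0.015, and 0.0728 and 0.077 without scramble replicate 1 or 2).

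CGNL1, or paracingulin, is a plaque protein of tight and adherens junctions. Its values were -0.18 and -0.16 in scramble, 0.52 and 0.75 with shRNA#2, and -0.03 and 0.03 with shRNA#4. The shRNA#2 arrays were the high ones. CGNL1 was 1.74-fold higher with shRNA#2 (0.80 ± 0.0829, adjusted p = 0.00206), against 0.17 with shRNA#4 (adjusted p = 0.215), with a difference of 0.63 ± 0.0829 between the hairpins (adjusted p = 0.00665). The mean change was 0.49 ± 0.0718 (adjusted p = 0.00471). Its relative CGN, or cingulin, read -0.41 and -0.15 with shRNA#4, where the other 4 arrays lay between -0.02 and 0.09. The change of -0.33 with shRNA#4 was close to the threshold (adjusted p = 0.0471) and was lost without any 1 of 5 arrays (scramble replicate 1, 0.173; scramble replicate 2, 0.114; shRNA#2 replicate 1 or 2, 0.0708; shRNA#4 replicate 1, 0.146). It was also lost with quantile normalization (0.0554). Without shRNA#4 replicate 2, CGN was called in the mean (0.042, against 0.193 with all arrays) and between the hairpins (0.0367, against 0.0782).

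**Figure D3:**
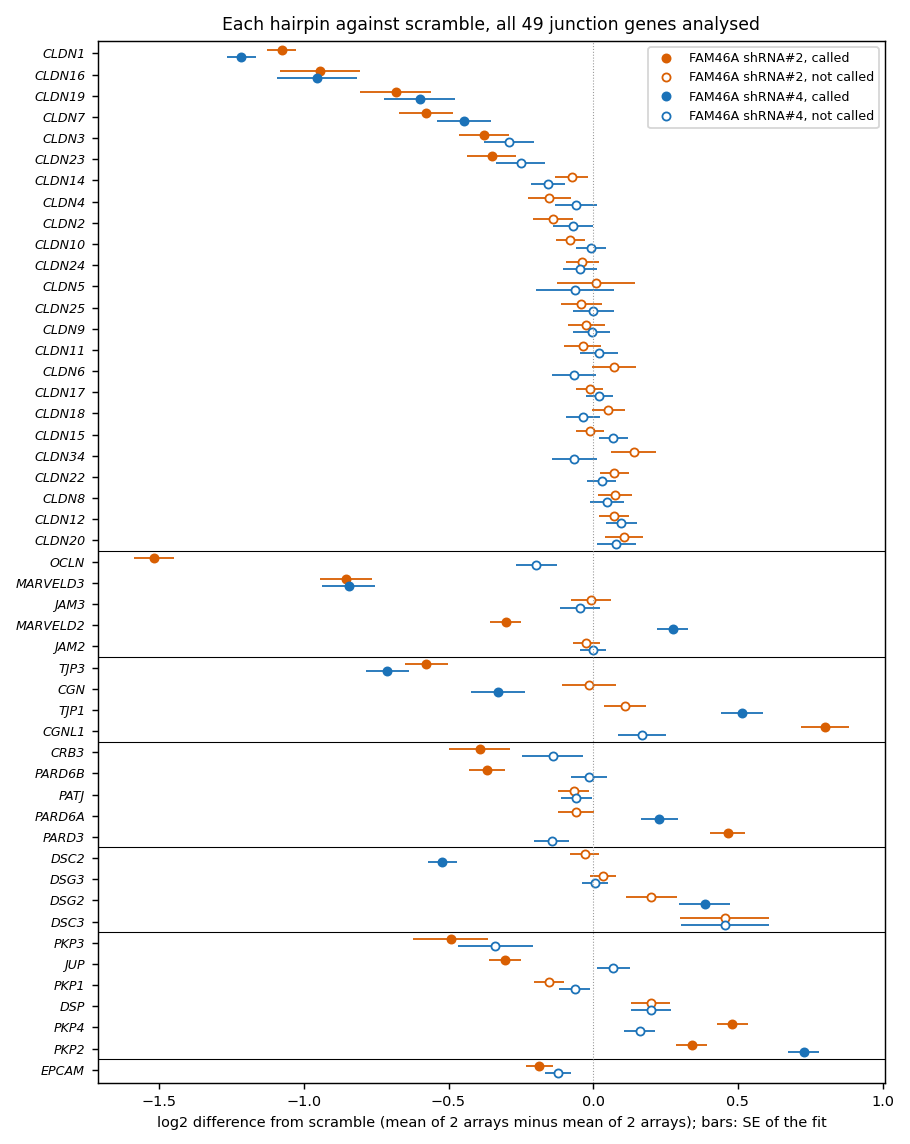
Log2 difference from scramble (x axis) for FAM46A-shRNA#2 (orange) and FAM46A-shRNA#4 (blue) in all 49 junction genes (y axis, grouped by role), each point the mean of 2 arrays minus the mean of 2 scramble arrays with the SE of the fit as a bar; filled points were called. CLDN1, CLDN16, CLDN19, CLDN7, MARVELD3 and TJP3 have both points filled on the left and PKP2 has both filled on the right, while OCLN, MARVELD2, CGNL1, PARD3 and DSC2 have points far apart.

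Of the 5 polarity genes, 3 were called between the hairpins. PARD3, the scaffold of the Par complex, read -0.04 and 0.04 in scramble, 0.43 and 0.50 with shRNA#2, and -0.10 and -0.19 with shRNA#4. Only the shRNA#2 arrays lay above scramble. PARD3 was higher by 0.46 ± 0.0595 with shRNA#2 (adjusted p = 0.00389), against -0.14 with shRNA#4 (adjusted p = 0.145). The difference between the hairpins was 0.61 ± 0.0595 (adjusted p = 0.00308), and the mean change of 0.16 was not called (adjusted p = 0.0714).

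PARD6B, an adaptor that joins PARD3 to atypical protein kinase C, showed the reverse. It read 0.05 and 0.04 in scramble, -0.31 and -0.34 with shRNA#2, and 0.10 and -0.04 with shRNA#4. It was lower by 0.37 with shRNA#2 (adjusted p = 0.00929, and 0.0571 without shRNA#2 replicate 2), against -0.02 with shRNA#4 (adjusted p = 0.918). The difference was -0.35 ± 0.0617 (adjusted p = 0.0155, and 0.0759, 0.0824 and 0.0562 without shRNA#2 replicate 1, shRNA#2 replicate 2 or shRNA#4 replicate 1). Its mean change, -0.19 ± 0.0534, was called (adjusted p = 0.0454), but not without scramble replicate 1 or 2 (0.174 and 0.150), shRNA#2 replicate 1 or 2 (0.0924 and 0.116) or shRNA#4 replicate 2 (0.0736).

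PARD6A, the related adaptor, read 0.21 and 0.22 with shRNA#4 and between -0.09 and 0.06 in the other 4 arrays. Its change with shRNA#4 was 0.23 (adjusted p = 0.0419) and its difference between the hairpins -0.29 ± 0.0625 (adjusted p = 0.0297). The difference was lost without any 1 of the 4 hairpin arrays (0.102 to 0.134), and the shRNA#4 change without scramble replicate 2 (0.152) or any 1 hairpin array (0.0756 to 0.143). CRB3, the Crumbs protein of the apical membrane, read 0.24 and 0.05 in scramble, -0.37 and -0.12 with shRNA#2, and 0.06 and -0.05 with shRNA#4. Its arrays were spread within each group. CRB3 was called with shRNA#2 (-0.39, adjusted p = 0.0468), but not without scramble replicate 1 (0.196), scramble replicate 2 (0.0566), shRNA#2 replicate 1 (0.192) or either shRNA#4 array (0.07). Its mean change was -0.27 ± 0.0919 (adjusted p = 0.0882, and 0.0442 without shRNA#2 replicate 2). PATJ, a scaffold of the Crumbs complex, had a mean change of -0.06 and was not called in any comparison.

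The desmosomal cadherins, which lie in 1 cluster on chromosome 18, did not move together. DSC2, the desmocollin of simple epithelia, read 0.02 and 0.03 in scramble, 0.00 and 0.00 with shRNA#2, and -0.45 and -0.53 with shRNA#4. It was 1.44-fold lower with shRNA#4 (-0.52 ± 0.0503, adjusted p = 0.00114) and stood at -0.03 with shRNA#2 (adjusted p = 0.784). The difference between the hairpins was 0.49 ± 0.0503 (adjusted p = 0.00345), and the mean change -0.28 ± 0.0436 (adjusted p = 0.006). DSG2, the desmoglein of simple epithelia, was higher. It read -0.14 and -0.26 in scramble, 0.07 and -0.07 with shRNA#2, and 0.28 and 0.09 with shRNA#4. All hairpin arrays of DSG2 lay above scramble. Its mean change was 0.29 ± 0.0758 (adjusted p = 0.0352), a call that was lost without scramble replicate 1 or 2 (0.0775 and 0.18), shRNA#2 replicate 1 (0.0897) or shRNA#4 replicate 1 (0.067) and with quantile normalization (0.0619). With shRNA#4 it was 0.39 (adjusted p = 0.022, and 0.0998 and 0.096 without scramble replicate 2 or shRNA#4 replicate 1), and with shRNA#2 0.20 (adjusted p = 0.176).

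DSC3, a desmocollin best known from stratified epithelia, read -0.56 and -0.14 in scramble, 0.20 and 0.00 with shRNA#2, and 0.00 and 0.21 with shRNA#4. The scramble arrays were low but 0.42 apart. The mean change of 0.45 ± 0.133 was not called (adjusted p = 0.0532). Without scramble replicate 2 it was 0.67 and called (adjusted p = 0.0177). It was likewise called with shRNA#2 (0.0262) and with shRNA#4 (0.0222) without that array, where the fit of all arrays gave 0.0918 and 0.0816. DSG3, the desmoglein of stratified epithelia, had a mean change of 0.02.

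In the desmosomal plaque, PKP2 was higher with both hairpins. Plakophilin-2 links the desmosomal cadherins to desmoplakin. It read -0.34 and -0.34 in scramble, -0.04 and 0.04 with shRNA#2, and 0.41 and 0.36 with shRNA#4. The 3 groups were fully separated. PKP2 was higher by 0.34 ± 0.0537 with shRNA#2 (adjusted p = 0.00747) and by 0.73 ± 0.0537, 1.66-fold, with shRNA#4 (adjusted p = 0.000529), with a mean change of 0.53 ± 0.0465, 1.45-fold (adjusted p = 0.000871). The difference between hairpins was -0.39 (adjusted p = 0.00796, and 0.0559 without shRNA#2 replicate 1).

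PKP4 was also higher in the mean, and PKP3 was lower. PKP4, a plakophilin found at both desmosomes and adherens junctions, read -0.19 and -0.13 in scramble, 0.35 and 0.29 with shRNA#2, and 0.03 and -0.03 with shRNA#4. It was higher by 0.48 with shRNA#2 (adjusted p = 0.00248), against 0.16 with shRNA#4 (adjusted p = 0.0766), and by 0.32 ± 0.046 in the mean (adjusted p = 0.00422). The difference of 0.32 between the hairpins was called (adjusted p = 0.0134), but not without shRNA#2 replicate 1 (0.0855), shRNA#2 replicate 2 (0.0547) or shRNA#4 replicate 2 (0.0703). PKP3 read 0.32 and 0.29 in scramble, -0.20 and -0.18 with shRNA#2, and -0.25 and 0.18 with shRNA#4. Its shRNA#4 arrays were the widest replicate pair among these genes. The mean change of PKP3 was -0.42 ± 0.113 (adjusted p = 0.0422), lost without either scramble array or either shRNA#2 array (adjusted p 0.0934 to 0.178). With shRNA#2 it was -0.49 (adjusted p = 0.0441, and 0.123 to 0.162 without any 1 scramble or shRNA#2 array). With shRNA#4 it was -0.34 (adjusted p = 0.12, and 0.00668 without shRNA#4 replicate 2), and the difference between the hairpins was called without shRNA#4 replicate 1 alone (0.0331). PKP1, known from skin, had a mean change of -0.11 (adjusted p = 0.146).

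JUP encodes plakoglobin, which serves both desmosomes and adherens junctions. It read 0.01 and -0.01 in scramble, -0.33 and -0.28 with shRNA#2, and 0.02 and 0.12 with shRNA#4. It was lower by 0.31 ± 0.0562 with shRNA#2 (adjusted p = 0.0129, and 0.0608, 0.0777 and 0.0525 without scramble replicate 1, shRNA#2 replicate 1 or shRNA#2 replicate 2) and stood at 0.07 with shRNA#4 (adjusted p = 0.475). The difference was -0.37 ± 0.0562 (adjusted p = 0.01, and 0.0685 without shRNA#2 replicate 1). DSP, or desmoplakin, which anchors keratin, stood at 0.20 with each hairpin and was not called in the mean (0.20 ± 0.0594, adjusted p = 0.0569, and 0.0257 without shRNA#4 replicate 2, when shRNA#4 alone was also called at 0.04). EPCAM, an adhesion molecule that binds claudin-7, read 0.12 and 0.12 in scramble, -0.06 and -0.07 with shRNA#2, and 0.01 and -0.01 with shRNA#4. Its replicates were close and its change small, -0.15 ± 0.0392 in the mean (adjusted p = 0.0337), and the call was lost without any 1 of the 6 arrays (0.0683 to 0.139). With shRNA#2 alone EPCAM was -0.19 (adjusted p = 0.0333), which was also lost without any 1 array (0.0553 to 0.143).

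Position in the genome was set beside these changes, with gene order taken from RefSeq. CLDN1 lies within the annotated span of CLDN16 on chromosome 3, on the opposite strand, and the next analysed protein-coding genes are P3H2 on one side and TMEM207 on the other. TMEM207 was lower, by 1.25 with shRNA#2 and by 0.87 with shRNA#4 (mean -1.06 ± 0.138, adjusted p = 0.00301), so 3 genes in a row were lower. P3H2, a collagen prolyl hydroxylase, was higher, by 1.72 and 2.13 (mean adjusted p = 0.000166). Beyond them TPRG1, IL1RAP and GMNC were not called in the mean (adjusted p = 0.523, 0.0848 and 0.903). IL1RAP was called lower with shRNA#4 (-0.39, adjusted p = 0.0355), but not without any 1 of the arrays other than shRNA#4 replicate 2 (0.0634 to 0.143). For the neighbours MARVELD2 and OCLN on chromosome 5, both values with shRNA#2 were below 0, and the next analysed gene, RAD17, stood at 0.33 with shRNA#2 (adjusted p = 0.0495, and 0.0536 to 0.220 without any 1 array) and 0.24 in the mean (adjusted p = 0.0742). In the cadherin cluster on chromosome 18 the order is DSC3, DSC2, DSC1, DSG1, DSG4, DSG3 and DSG2. In the mean, DSC3 and DSG2 at its ends stood at 0.45 and 0.29, DSC2 was lower, and DSC1, DSG1, DSG4 and DSG3 lay between -0.03 and 0.10 and were not called. DSC1 was called with shRNA#4 (0.18, adjusted p = 0.045), but not without any 1 of the 6 arrays (0.0756 to 0.180). TTR, the transthyretin gene next to DSG2, was lower (-1.58 ± 0.162, adjusted p = 0.00141). The pairs CLDN9 and CLDN6, CLDN17 and CLDN8, and CLDN22 and CLDN24 are also neighbours, and none of these 6 was called.

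**Figure D4:**
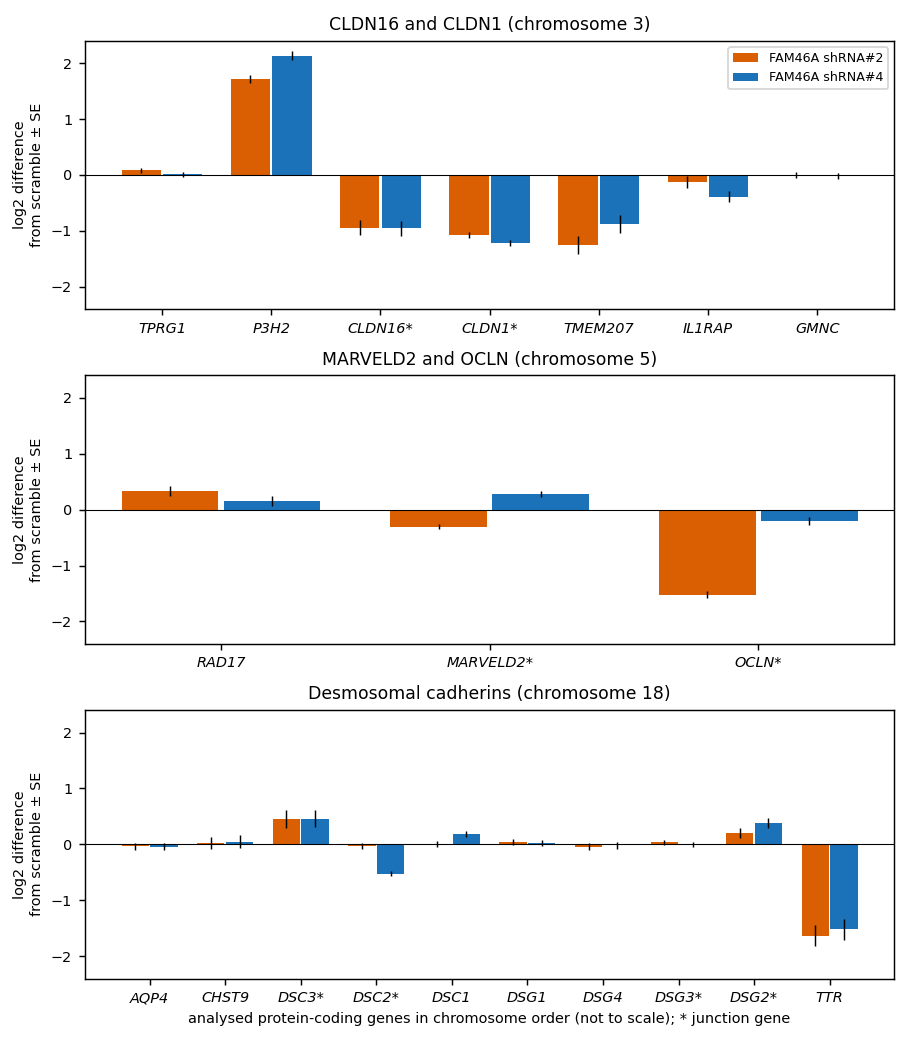
Log2 difference from scramble with its SE (y axis) for each analysed protein-coding gene in chromosome order (x axis, not to scale) around CLDN16 and CLDN1, MARVELD2 and OCLN, and the desmosomal cadherins, with FAM46A-shRNA#2 in orange, FAM46A-shRNA#4 in blue and junction genes starred. The bars of CLDN16, CLDN1 and TMEM207 point down beside the upward bars of P3H2, and the 4 cadherins between DSC2 and DSG2 lie from -0.04 to 0.18, the highest being DSC1 with shRNA#4.

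Other junction genes were taken from lists of known partners. Of 112 such genes 55 were analysed, and in the mean of both hairpins 3 were higher and 8 lower, 20% in all beside 25.4% of all genes. That count was 5 without scramble replicate 1 and 7 without shRNA#2 replicate 1. In the tight junction list 1 of 15 genes was higher and 3 were lower, 26.7% in all, a share close to the 25.4% of all genes. ARHGEF18 was lower (-0.63 ± 0.0863, adjusted p = 0.00369), as was LSR, which recruits tricellulin to the contact points of 3 cells (-0.47 ± 0.0636, adjusted p = 0.00342). LSR read -0.70 with shRNA#2 and -0.24 with shRNA#4. MICALL2, which helps to carry occludin to the membrane, was at -0.37 (adjusted p = 0.0105, and 0.0674 without scramble replicate 1). The higher gene was ESAM, an adhesion molecule of endothelium and platelets, at 0.24 (adjusted p = 0.0311), from -0.15 with shRNA#2 and 0.63 with shRNA#4. Its call was lost without any 1 of the 6 arrays other than shRNA#2 replicate 2 (highest adjusted p 0.149).

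For adherens junctions, where nectins and cadherins join actin, 7 of 29 listed partners were analysed. In the mean 1 was higher and 1 lower, 28.6% in all beside 25.4% of all genes. LIMA1, an actin-binding protein linked to the cadherin complex, was lower (-0.51 ± 0.0507, adjusted p = 0.00128), with -0.42 for shRNA#2 and -0.59 for shRNA#4. NECTIN1 was called higher (0.25 ± 0.0641, adjusted p = 0.034), but not without any 1 of 5 arrays (all but shRNA#4 replicate 1, highest adjusted p 0.155), and 5 others were not called in the mean. VCL, or vinculin, which ties the cadherin complex to actin, was 1 of these 5, with 0.42 for shRNA#2 (adjusted p = 0.0393) and -0.20 for shRNA#4 (adjusted p = 0.258). Its difference between the hairpins was 0.62 (adjusted p = 0.0153). The shRNA#2 call was lost without scramble replicate 2 (0.130) or either shRNA#2 array (0.0981 and 0.171), and the difference without either shRNA#2 array (0.0626 and 0.0813) or shRNA#4 replicate 2 (0.0769). Of 15 desmosome and keratin partners, 0 were higher and 2 lower in the mean, 13.3% beside 25.4% of all genes. With shRNA#4 alone 2 were higher, DSC1 and KRT18 (0.49, adjusted p = 0.0315), and 1 was lower, 20% in all beside 26.1% of all genes. KRT18 was not called without either scramble array (0.143 and 0.0597) or shRNA#4 replicate 2 (0.127). The genes lower in the mean were KRT20, a keratin of mature enterocytes (-1.19 ± 0.206, adjusted p = 0.00848), whose scramble arrays read 1.56 and 0.75, and PPL, or periplakin (-0.29, adjusted p = 0.0257), whose call was lost without any 1 of 4 arrays (both scramble arrays, shRNA#2 replicate 2 and shRNA#4 replicate 1, highest adjusted p 0.154). Of 16 polarity partners, 1 was higher and 2 were lower in the mean, 18.8% in all beside 25.4% of all genes. ERBIN, a basolateral scaffold, was lower by 0.80 with shRNA#2 and by 0.82 with shRNA#4 (mean -0.81 ± 0.0701, adjusted p = 0.000839). LLGL1, a basolateral polarity protein, was at -0.20 (adjusted p = 0.016, and 0.103 and 0.0528 without scramble replicate 1 or shRNA#2 replicate 1). LIN7A, a scaffold of the Crumbs complex, was at 0.22 (adjusted p = 0.027), a call lost without scramble replicate 1 (0.161), either shRNA#2 array (0.0708 and 0.0737) or shRNA#4 replicate 1 (0.0642). PANX1 and PANX2, the 2 analysed genes of the gap junction list, encode pannexins rather than the connexins of gap junctions, and were not called.

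Changes in regulators and markers of cell state were set beside those of the junction genes. Among 21 transcription and splicing factors that act for or against the epithelial state, 4 were higher and 6 lower in the mean, where 14.8% of all genes were higher and 10.6% lower. GRHL2, which maintains epithelial gene expression, was higher (0.60 ± 0.0426, adjusted p = 0.000491), while its relative GRHL1 was lower (-0.63 ± 0.118, adjusted p = 0.0108, and 0.0766 without scramble replicate 1). TCF4, an E-box binding factor, was higher by 0.87 ± 0.09 (adjusted p = 0.00141), and OVOL1 lower by 0.37 (adjusted p = 0.00518). The remaining lower factors had smaller mean changes and are not named here. The other higher genes were SNAI1, an E-box repressor (0.24, adjusted p = 0.0362), and ESRP1, an epithelial splicing factor (0.24, adjusted p = 0.0336). The SNAI1 call was lost without any 1 scramble or shRNA#2 array (0.083 to 0.179), and that of ESRP1 without scramble replicate 2 (0.177), shRNA#2 replicate 1 (0.0892) or either shRNA#4 array (0.0849 and 0.0515). Enterocyte markers were lower in 11 of 11 analysed genes in the mean (10.6% of all genes) and with shRNA#4 (10.4%). With shRNA#2 they were lower in 9 of 11 (9.54% of all genes). Their median changes were -1.38 with shRNA#2 and -1.04 with shRNA#4. In the mean APOA4, a secreted apolipoprotein, was at -2.95 and LCT, or lactase, at -2.13. CDHR5 of the brush border was at -1.79 and SI, or sucrase-isomaltase, at -1.49. Of 6 mesenchymal markers 3 were higher (14.8% of all genes) and 1 lower (10.6%) in the mean. TAGLN was at 0.44 in the mean, from -0.23 with shRNA#2 and 1.11 with shRNA#4. FN1, or fibronectin, was at 0.30 (adjusted p = 0.018, and 0.101, 0.0711 and 0.0504 without scramble replicate 1, scramble replicate 2 or shRNA#4 replicate 1). VIM, or vimentin, was at 0.28 (adjusted p = 0.00843, and 0.0572 without scramble replicate 1). THY1 was at -0.20 (adjusted p = 0.0203), which was lost without any 1 of the arrays other than shRNA#4 replicate 1 (highest adjusted p 0.124). Of 6 immune and endothelial markers 2 were lower in the mean (10.6% of all genes), CD68 at -2.01 and LYZ at -1.16. Summed levels of these lists and markers at 0 cannot be given, since the values are centred. The part of these shifts in the junction results was not tested.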

How the data were processed

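RNA from Caco-2 cultures was hybridised to 6 one-colour Affymetrix arrays, 2 for each of 3 groups. Per the labels' protocols, biotin-labelled sense-strand DNA was made with the WT PLUS kit from 100 ng of RNA. The deposited values, made by the authors, are log2 values relative to each probe set's median over the 6 arrays. The centring and log scale were read from the values, base 2 was assumed, and the sources used here do not give summarisation, background correction, normalization or software. The base affects every fold change; centring does not alter a difference between groups.

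Of 48144 probe sets, 16098 had 1 symbol in the platform table, 32046 had none and 0 had several. Probe sets of a gene were averaged (14884 genes). One linear fit (limma 3.58.1, R 4.3.3; lmFit and eBayes, 3 residual and 3.09 prior degrees of freedom) served 4 comparisons, with Benjamini-Hochberg adjustment over all genes. The median SE was 0.0657 for a hairpin and 0.0569 for the mean of both; 2 arrays a group limit the precision. The fit was also run on simulated data with independent normal noise and the same change added to both hairpins. Only calls in the mean of both hairpins were scored there, not those of single hairpins or between hairpins. Scaling, variance prior, array weights, the replicate block, tested features, thresholds and single arrays left out were varied.

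The members and lists were chosen with earlier results of these data known. Per-array values are given for members called in the mean of both hairpins with an absolute log2 change of at least 0.5, for those called between hairpins with a difference of at least 0.5, and for at least 2 members of each role group with the largest mean change; others were added after their values were seen. Of each partner, factor or marker list, up to 4 genes with the largest mean change were eligible, and ESAM, LLGL1, THY1, SNAI1, ESRP1, VCL, KRT18, DSC1, RAD17 and IL1RAP were added to complete counts after their values were seen. Figures used Python 3.11.15 with matplotlib 3.10.9.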

Additional observations from a re-analysis of the deposited data

Results flagged for a closer look

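The effects of the 2 hairpins differed by the test of the difference itself (limma, adjusted p under 0.05) in 11 of the 49 junction genes, where 15.3% of all genes did. Values are shRNA#2 minus shRNA#4 on the log2 scale. Among tight junction genes they were -1.32 for OCLN, -0.58 for MARVELD2, -0.40 for TJP1 and 0.63 for CGNL1. Among polarity genes they were 0.61 for PARD3, -0.29 for PARD6A and -0.35 for PARD6B. Among desmosome genes they were 0.49 for DSC2, -0.37 for JUP, -0.39 for PKP2 and 0.32 for PKP4. MARVELD2 had opposite signs with the 2 hairpins, each called against scramble. OCLN, MARVELD2, CGNL1, PARD3 and DSC2 remained called without any 1 array, and the other 6 did not. Groups of 2 arrays were too small to look for single outlying samples. No explanation for these differences was tested.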

How the results depend on the processing

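In every comparison and setting run, no called junction gene changed sign. The range given below for junction genes whose groups do not overlap has no share of all genes beside it. With 1 array left out, groups separate more easily in any gene, so that range is not read as a change. Of the called genes, 11 of 18 in the mean of both hairpins, 9 of 19 with shRNA#2, 7 of 13 with shRNA#4 and 5 of 11 between the hairpins were called under every scaling, variance, weighting, block, sample and feature setting and without any 1 array. Leaving out 1 array gave 12 to 17 called junction genes for the mean, 12 to 16 for shRNA#2, 8 to 15 for shRNA#4 and 5 to 11 between the hairpins, 5 to 11 other junction genes, 24 to 32 genes whose groups do not overlap, and over all genes 2477 to 3358, 1756 to 2982, 2677 to 3476 and 761 to 2166; these fits have fewer arrays.

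At an adjusted p under 0.01 the counts, in the order shRNA#2, shRNA#4, mean and between hairpins, were 11, 7, 11 and 7 junction genes and 1575, 2122, 2158 and 769 of all genes, with 5 other junction genes in the mean. With a change of at least 1.5-fold they were 6, 6, 6 and 3 and 828, 1183, 823 and 466, with 3 other junction genes. Testing all probe sets called 6300 features for shRNA#4 and 6141 for the mean, because more features were tested, yet the mean calls of CLDN23 (0.0638), PARD6B (0.0709), DSG2 (0.0748) and PKP3 (0.0972) were lost there. Testing protein-coding genes alone added DSC3 (0.0326) and DSP (0.0466) in the mean and CLDN3 with shRNA#4 (0.0396). The CGN call with shRNA#4 was lost with quantile normalization, a robust prior, array weights, only the arrays compared and all probe sets. Among other single-hairpin calls, CRB3 with shRNA#2 was lost with a robust prior (0.0513), only the arrays compared (0.0701) and all probe sets (0.104). PARD6A with shRNA#4 was lost with only the arrays compared (0.0756) and all probe sets (0.0669).

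Replicate number pairs the arrays only by label. Deviations of same-numbered arrays correlated at 0.179 (scramble and shRNA#2), 0.119 (scramble and shRNA#4) and 0.199 (the 2 hairpins). With replicate number as a block, 3598, 4227, 4160 and 2637 genes were called in the same order, 19, 14, 19 and 11 junction genes, and 15 other junction genes in the mean. The block added calls for OCLN with shRNA#4 (0.0399), DSG2 with shRNA#2 (0.041) and DSC3 in the mean (0.045), and CRB3 with shRNA#2 was lost (0.0579).

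Signal over background, and the limit it sets for dim probe sets, was not analysed here.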
